A study of Mus musculus with 8 samples.

Results

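In NIH3T3 cells, 937 autosomal regions of accessible chromatin were listed on G2 and not on G128. They lay more than 30000 bp from any region listed in every library. They were chosen from the peak lists of 4 ATAC-seq libraries. Overlapping peaks were merged into 45915 regions. A region was G2-only if both G2 lists and neither G128 list had a peak in it, and shared if all 4 lists had one. Of 3820 G2-only regions, 3774 lay on autosomes, and of these 937 had an edge more than 30000 bp from the edge of every shared region. They are called far G2-only regions here, and the other 2837 near G2-only regions. The presence of peaks in the 4 lists and the distance to shared regions chose the members, so counts, heights and distances are given as descriptions with no test.

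The cells are NIH3T3, an immortalised mouse fibroblast line, and the series concerns hydrogels of polyvinyl alcohol and gelatin and how cells adhere to them. The 2 groups were cultured for 24 h on G128 or on G2, names that the labels do not explain, with 2 libraries each and the same growth medium named for both. No genetic change or agent is given for either group. No label says that the libraries came from separate cultures. The cell type could not be checked against marker genes, since peaks were not assigned to genes here.

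In ATAC-seq, the Tn5 transposase inserts sequencing adapters into DNA that is not wrapped tightly in nucleosomes, and reads pile up over promoters, enhancers and other exposed sites. Enhancers can lie far from the gene they act on. Fibroblasts are cells that sense the stiffness and adhesiveness of their surroundings through integrins and the actin cytoskeleton, and signals from there can reach chromatin. A region far from every shared one is, by that choice, not next to a site listed in all 4 libraries, but it can be next to one that fewer libraries list.

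Height is given as the summit over the background: the number of overlapping sequenced intervals at the peak's summit, divided by the mean background of its library. The background mean, a measure of depth, was 1.05 and 1.41 intervals per bp in G128 replicates 1 and 2, and 1.10 and 1.37 in G2 replicates 1 and 2. The 4 lists held 32540, 37695, 42358 and 41585 peaks in that order. Shared regions had median summits of 50.3 and 58.1 (G128) and of 67.3 and 68.7 (G2) over the background. The weakest listed summits were 19.0, 18.4, 18.2 and 18.3 times the background. The same summit cutoff thus stood at 37.7% and 31.7% of the median shared summit in the G128 lists, and at 27.0% and 26.6% in the G2 lists.

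Among far regions that were not shared, the pattern of both G2 libraries alone was the most frequent. It held 937 regions against 44 with a peak in both G128 libraries alone, a ratio of 21.3. Over all 45157 autosomal regions, 2.07% were far and G2-only, and 8.36% were G2-only at any distance. Among the 4013 autosomal regions that were far and not shared, 23.3% were G2-only and 1.1% G128-only. The patterns that follow no group held 127 regions where both replicates 2 had the peak and 32 where both replicates 1 did. The crossed pairs held 104 (G128 replicate 2, G2 replicate 1) and 40 (G128 replicate 1, G2 replicate 2). The G2-only pattern pairs the longest lists, so list length and culture cannot be told apart in these counts.

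Many further far regions were listed on G2 and in 1 of the G128 lists. Of 1990 far regions with a peak in both G2 lists but not in all 4, 47.1% were in neither G128 list (Wilson 95% interval 44.9 to 49.3%). A similar share, 45.3% (43.1 to 47.5%, 901 regions), were also in the list of G128 replicate 2, and 7.64% (6.55 to 8.89%, 152 regions) in that of G128 replicate 1. Near shared regions the same 3 shares were 42.5%, 50.8% and 6.68% of 6677 regions. Intervals cover counting error only. Without G128 replicate 2, the rule gave 1799 far G2-only regions, and without G128 replicate 1 it gave 935. Without G2 replicate 1 or 2, where 1 G2 list is enough, it gave 1535 or 1708.

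**Figure D1:**
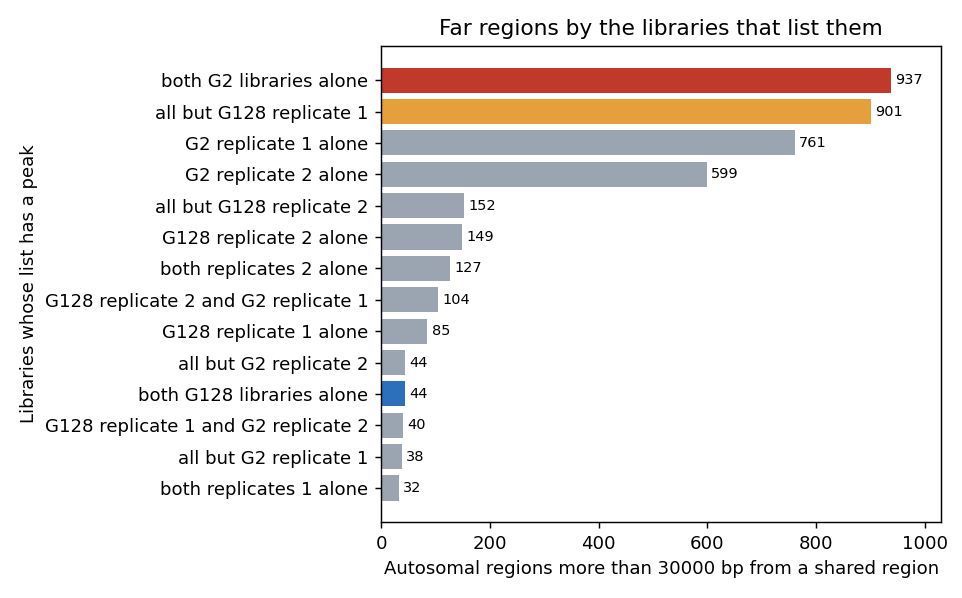
Number of autosomal regions more than 30000 bp from a shared region (horizontal axis), by the set of libraries whose peak list has the region (rows). The 937 regions of both G2 libraries alone (red) stand beside 901 found in all but G128 replicate 1 (orange) and 44 of both G128 libraries alone (blue).

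The share of far regions varied between patterns, and that of G2-only regions lay inside the range of the others. Of the autosomal G2-only regions, 24.8% were far (Wilson 95% interval 23.5 to 26.2%), against 21.8% (21.2 to 22.5%) of the other 14081 regions that were not shared. Of G128-only regions, 26.5% were far (20.4 to 33.7%, 44 of 166), an interval that holds the G2-only share. Over the single patterns the share ran from 14.5% for G128 replicate 2 alone to 31.0% for G128 replicate 1 alone. It was 27.4% for G2 replicate 1 alone, 20.7% for G2 replicate 2 alone, 25.4% in all but G128 replicate 2 and 21.0% in all but G128 replicate 1. Shared regions themselves were more than 30000 bp from the next shared region in 20.5% of cases (20.1 to 21.0%). These shares are over regions of the same 4 lists and not over replicates, so no test was made.

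The far G2-only regions were narrow, weak, single peaks in both G2 libraries. Their summits ranged from 19.1 through a median of 25.5 to 67.3 times the background in the first G2 library, and from 19.0 through 24.8 to 63.6 in the second. In whole intervals, the median summit was 28 and 34 overlapping intervals in these libraries. Neither G128 library had a listed peak in any of them, by the rule. The median width was 215 bp, from 90 to 739 bp, where shared regions on autosomes had a median of 627 bp. Of the 937, 934 were 1 peak in each G2 list.

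The near G2-only regions were alike in height and width. Their median summits were also 25.5 and 24.8 times the background, and their median width was 221 bp. At the upper end they were wider: 26.4% of near regions (Wilson 95% interval 24.8 to 28.1%) and 20.3% of far regions (17.8 to 23.0%) were at least 300 bp wide. Both G2 summits reached 30 times the background in 7.15% of far regions (5.67 to 8.98%, 67 regions) and in 8.14% of near ones (7.19 to 9.21%). They reached 40 times in 6 far and 31 near regions, and 50 times in 2 far and 5 near regions. The far regions that were also in the list of G128 replicate 2 stood higher, with median G2 summits of 28.2 and 27.8 times and a median width of 244 bp. In those 901 regions the median summit in G128 replicate 2 was 24.8 times the background. Without scaling between libraries, it was below the mean of the G2 summits in 684 of them, at a median ratio of 0.89. Over shared regions, the medians of G128 replicate 2 stood at 0.863 and 0.846 of those of G2 replicates 1 and 2. The 901 regions needed a listed peak in G128 replicate 2, which leaves out lower summits in that library. Whether heights on G128 were lower beyond the general height of the libraries cannot be told from the 684. In the 152 far regions in all but G128 replicate 2, G128 replicate 1 was below in 103, at a median ratio of 0.938.

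The 2 G2 libraries placed the summits of the members close together. The rule asked for 1 bp of overlap, and both summits lie inside a region with a median width of 215 bp. Part of this closeness thus follows from the rule and the width, and the distances are not independent evidence of agreement. The median distance between the G2 summits was 22 bp, and it was at most 10 bp in 32.8% of members (Wilson 95% interval 29.8 to 35.8%) and at most 100 bp in 90.0% (87.9 to 91.7%). In near G2-only regions the median was also 22 bp. In shared regions on autosomes, which are wider and higher, it was 10 bp, and 50.8% (50.2 to 51.4%) lay within 10 bp. In the 943 shared regions whose mean G2 summit lay in the members' middle range, 23.1 to 27.5 times the background, the median distance was 24 bp. The G2 peaks of a member shared a median of 80.2% of their joint length.

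Heights agreed less between the G2 libraries. Across the 937 members, the log2 summits of the 2 libraries had a Pearson r of 0.47 and a Spearman rho of 0.36, against 0.98 and 0.97 across the 27302 shared regions on autosomes. The members cover a narrow range of heights just above the caller's limit, and their values are whole numbers of intervals. The SD of the log2 difference between the libraries was 0.26 in members and 0.23 in shared regions. The wider members were also the higher ones (Spearman rho 0.47, across the same regions), while distance to the nearest shared region and height were nearly unrelated (rho -0.075).

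The strongest far G2-only region, by its worse rank by signal in the 2 G2 lists, was chr7:71466458-71466906, 449 bp wide. Its G2 summits stood at 67.3 (replicate 1) and 63.6 (replicate 2) over the background, close to the median of the shared regions in both libraries. The summits lay 48 bp apart, and the nearest shared region was 33440 bp away, with a region of G2 replicate 2 alone at 5052 bp.

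Next came chr5:119341085-119341641, 557 bp wide, with G2 summits of 49.1 and 40.9 over the background. It lay 134669 bp from a shared region and 109213 bp from any region with a G128 peak. The third, chr1:122253892-122254315, reached 59.1 and 52.6 times with summits 8 bp apart, 91587 bp from a shared region. The fourth, chr11:81755688-81756048, reached 48.2 and 50.4 times, 33008 bp from a shared region. These 4 regions, the strongest included, had both G2 summits above 40 times the background.

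Of the next 6 by rank, 3 were on chromosome 5. The region chr5:38896370-38896767 had G2 summits of 43.7 and 38.7 over the background. The region chr5:149706635-149707124 had summits of 44 intervals in G2 replicate 1 and 63 in replicate 2, a mean of 43.0 over the background, and a second G2-only region lay 246 bp from it. The region chr5:135740013-135740287, only 275 bp wide, reached 49.1 and 39.5 times. Chromosome 5 thus held 4 of the 10 strongest members.

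The last 3 of the 10 lay on chromosomes 15, 1 and 14. The region chr15:66559500-66559968 had G2 summits of 34.6 and 40.9 over the background. The region chr1:128556871-128557447, the widest of the 10 with 577 bp, had summits of 44 and 47 intervals, a mean of 37.2 over the background. The region chr14:117980922-117981317 reached 46.4 and 40.2 times with summits 4 bp apart, and was 348436 bp from a shared region. The 10 strongest ranked between 14990 and 23409 by their worse list, in lists of 42358 and 41585 peaks. What genes or sequence elements lie at these positions was not examined here.

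All 937 members stood above the weakest listed summit of either G128 list when heights were compared as they were. Fewer did once the G2 heights were scaled by the medians of all shared regions. Each G2 summit was multiplied by the ratio of the G128 to the G2 median over shared regions, which was 0.747 and 0.732 for G128 replicate 1 against G2 replicates 1 and 2. On that scale 233 members (24.9%, Wilson 95% interval 22.2 to 27.7%) still exceeded the weakest summit of G128 replicate 1 in both G2 libraries. The median member stood at 0.977 of that weakest summit. Against G128 replicate 2, with factors of 0.863 and 0.846, 681 members did so (72.7%, 69.7 to 75.4%), and the median was 1.16 times its weakest summit. These factors were not seen in the 943 shared regions with mean G2 summits of 23.1 to 27.5 times the background. Their median summits were 25.6 and 26.2 (G128) and 25.5 and 25.6 (G2), and the G128 mean was the lower in 378. Those regions needed a peak in every list, which leaves out lower G128 summits, so the scaling at the members' height is not known. The caller's limit also involves the peak's area, so a summit above the weakest one need not have been listed.

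Where only G2 peaks above the scaled limit were kept, 250 regions were far and G2-only and 155 far and G128-only, a ratio of 1.61 in place of 21.3. The limit was then 25.4 (G2 replicate 1) and 25.9 (G2 replicate 2) over the background, and 233 of the 250 were members. Dropping G2 peaks can also turn a region into a G128-only one, so both counts move with this limit. It was chosen after the values were seen, and it rests on the same factors. The 10 strongest members all lay above it.

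**Figure D2:**
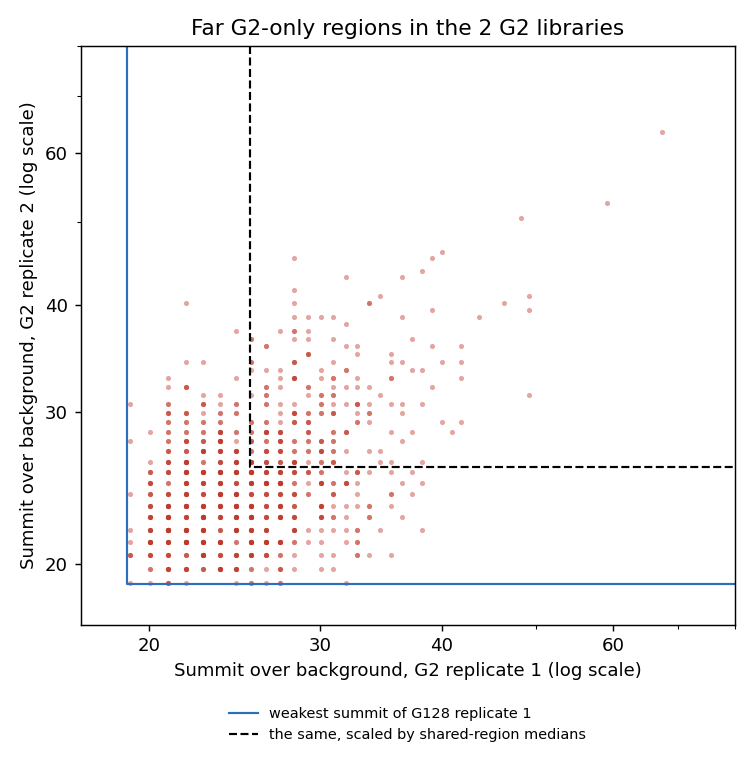
Summit over the background in G2 replicate 1 (horizontal, log scale) against G2 replicate 2 (vertical, log scale), 1 point for each of the 937 far G2-only regions. The solid line marks the weakest summit listed in G128 replicate 1, 19.0 times the background, and the dashed line the same scaled by the medians of shared regions, 25.4 and 25.9 times, above which 233 points lie in both libraries.

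The density of G2-only regions fell with distance from shared regions, and so did that of the other patterns, by amounts that differed. Between neighbouring shared regions on autosomes, 1649 Mb lay more than 30000 bp from a shared region and 733 Mb lay nearer. The far stretches held 0.566 G2-only regions per Mb and the near ones 3.86 per Mb, a ratio of 6.82. For regions in all but G128 replicate 1 the densities were 0.545 and 4.63 per Mb, a ratio of 8.49. For both G128 libraries alone they were 0.0267 and 0.166 per Mb, a ratio of 6.23. For both replicates 2 alone the ratio was 11.8.

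By distance class, G2-only regions numbered 11.9 per Mb within 1000 bp of a shared region and 2.68 per Mb between 10000 and 30000 bp. Between 30000 and 100000 bp there were 1.45 per Mb, between 100000 and 300000 bp 0.405 per Mb, and between 300000 and 1000000 bp 0.0934 per Mb. Beyond 1000000 bp, 8 regions in 216 Mb gave 0.0371 per Mb. Regions in all but G128 replicate 1 were the more frequent within 1000 bp, at 18.7 per Mb, and from 30000 to 100000 bp they were nearly equal at 1.44 per Mb.

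**Figure D3:**
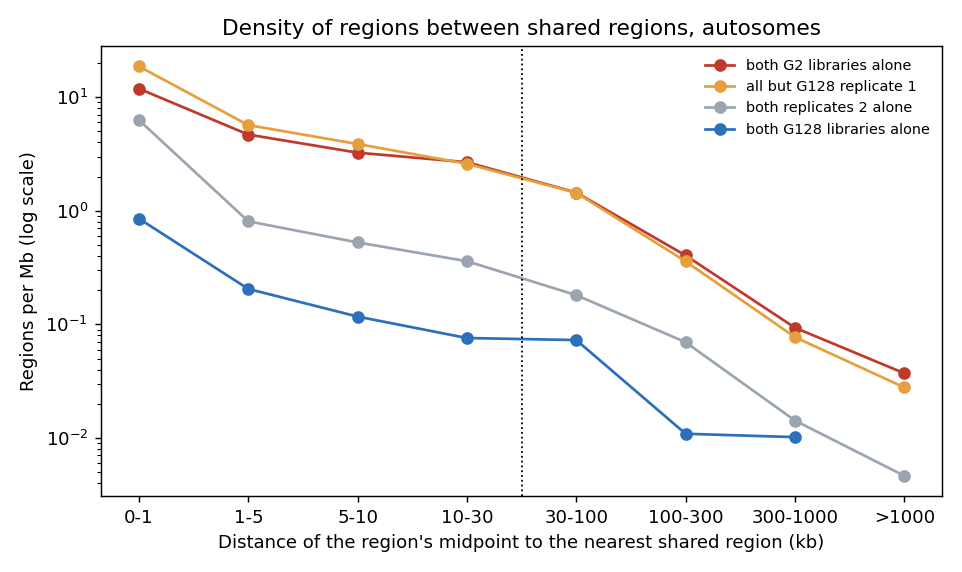
Regions per Mb of sequence (vertical, log scale) by the distance of their midpoint to the nearest shared region (horizontal, classes in kb), for 4 patterns of libraries between shared regions on autosomes. The dotted line marks the 30000 bp limit; the G2-only density drops from 11.9 to 0.0371 per Mb, and both G128 libraries alone had no region in the last class, which is not drawn.

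The members changed little with distance. The 359 between 30000 and 50000 bp from a shared region had a median width of 216 bp and median G2 summits of 25.5 and 24.8 over the background. The 56 beyond 300000 bp had a median width of 187 bp and median summits of 24.6 and 23.4 times. The median distance over all members was 59667 bp, and 25.9% (Wilson 95% interval 23.2 to 28.8%) lay more than 100000 bp away.

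The member farthest from a shared region was chr6:76446716-76447050, 3247630 bp from the next one and with no listed region of any library in between. In G2 replicate 1 it ranked 41383 of 42358 peaks with a summit of 19.1 over the background, and in G2 replicate 2 its summit was 27.8. The second, chr15:22662942-22663163, lay 2666802 bp from a shared region inside a stretch of 12574870 bp, with summits of 31.8 and 25.6 times. The third, chr14:90298708-90298853, lay 2482215 bp away, with 24.6 and 24.1 times. Their mean G2 summits were 23.4, 28.7 and 24.3 over the background, where the median member had 25.1.

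The limit of 30000 bp was a chosen one, and the regions closest to it on each side are given here. The 3 members just above it were chr6:6498162-6498306 at 30010 bp, chr8:127909637-127909905 at 30037 bp and chr7:106560665-106560832 at 30078 bp. Their mean G2 summits were 22.0, 29.7 and 20.8 times the background. The 3 regions just below it were chr2:173132664-173132911 at 30000 bp, chr4:128591011-128591343 at 29981 bp and chr1:90453074-90453285 at 29894 bp. Theirs were 30.3, 26.3 and 29.0 times.

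Most members stood alone in their stretch between shared regions. Of 6438 such stretches longer than 60000 bp, 763 held members: 624 held 1, 113 held 2, 21 held 3, 4 held 4 and 1 held 5. A further 3 members lay outside the outermost shared regions of their chromosome. In 144 of the 763 stretches the member was the only listed region of any library. A region in all but G128 replicate 1 lay in 267 of them and a G128-only region in 14. Stretches of 60000 to 100000 bp held 2.51 members per Mb of far sequence, and stretches longer than 1000000 bp held 0.143 per Mb.

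The stretch with the most members was chr16:94791739-95562901, with 5 of them spread over 492403 bp and 13 listed regions in all. Their mean G2 summits were 22.5 to 26.2 times the background. Stretches with 4 members numbered 4, and the 2 with the highest summed signal are given. The first of them was chr18:47118891-47528327, with 4 members over 232276 bp and mean summits of 21.1 to 33.5 times. The other was chr12:25954376-27083415, where 4 members lay within 36838 bp of each other. The leftmost, chr12:27014223-27014507, had G2 summits of 36.4 and 43.1 over the background. The other 3 had mean summits of 21.0 to 25.4 times. This stretch of 1129040 bp held only 1 listed region that was not a member.

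Groups of members in which each lay within 30000 bp of the next were few. There were 65 such groups, with 140 members, and 56 of the groups were pairs. The tightest group of 3, singled out after its values were seen, spanned 6396 bp at chr10:117424789-117431184. Its 3 summits ranged from 21.8 to 38.2 over the background in the first G2 library and from 26.3 to 33.6 in the second. The remaining 797 members were in no such group.

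The nearest listed region of any kind was at a median of 31144 bp from a member, and 52.2% of members (Wilson 95% interval 49.0 to 55.4%) had none within 30000 bp. That nearest region was shared for 254 members, G2-only for 194, in all but G128 replicate 1 for 152, and in a single G2 library for 211 more (106 and 105 in replicates 2 and 1). It was G128-only for 6 members. A region with any G128 peak was farther than 30000 bp from 719 members (76.7%, 73.9 to 79.3%).

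The members were found on all 19 autosomes, from 29 on chromosomes 8 and 19 to 82 on chromosome 2. Per Mb of far sequence, they were densest on chromosome 19, at 0.867, and sparsest on chromosomes 8 and 12, at 0.321 and 0.365. Regions in all but G128 replicate 1 followed another order, with 0.778 per Mb on chromosome 19, 0.498 on 8 and 0.636 on 12. Regions outside the outermost shared regions of a chromosome were left out of the next shares, among them 3 members on chromosome 14. Taking both kinds together, members made up 51.0% of them over all autosomes (Wilson 95% interval 48.7 to 53.2%). On chromosome 16 they made up 64.5% (53.3 to 74.3%) and on chromosome 14 61.6% (51.1 to 71.2%). On chromosome 12 the share was 36.5% (27.0 to 47.1%) and on chromosome 8 39.2% (28.9 to 50.6%). The intervals of these 4 chromosomes leave out the share over all autosomes, those of chromosomes 14 and 8 narrowly, among 19 compared with no adjustment. Copy number of these chromosomes in the cells was not examined.

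**Figure D4:**
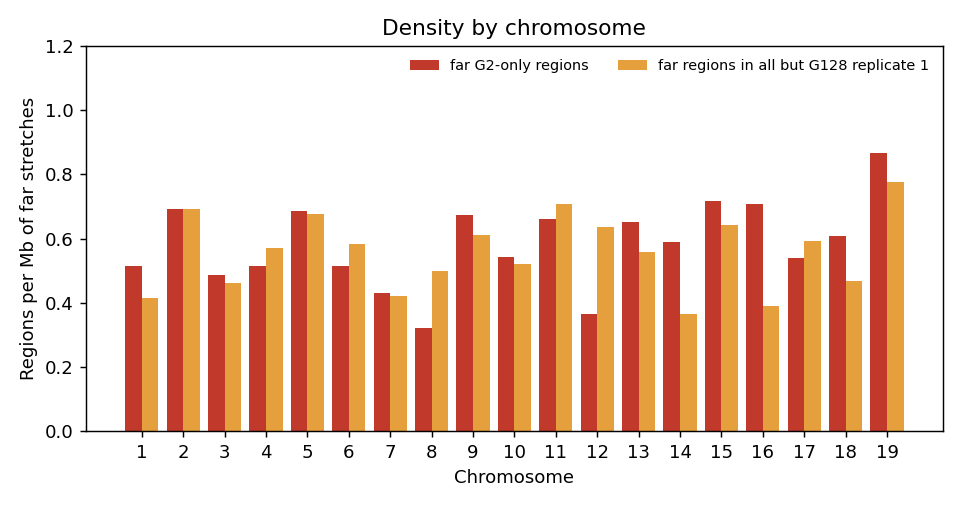
Regions per Mb of autosomal sequence more than 30000 bp from a shared region (vertical axis), by chromosome (horizontal axis), for far G2-only regions (red) and far regions in all but G128 replicate 1 (orange). Red exceeds orange most on chromosomes 16 and 14, and orange exceeds red most on chromosome 12.

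The shared regions that border the members' stretches were called between the cultures about as often as shared regions in general. These 1485 regions were the nearest shared ones on each side of a member, and unlike the members they have a summit in every library. Their median summits over the background were 49.3 and 54.6 (G128 replicates 1 and 2) and 65.5 and 66.5 (G2 replicates 1 and 2). Both G2 medians were above both G128 medians, as they were over all shared regions. After centring each library on its median over shared regions, the median difference between G2 and G128 was 0.04 on the log2 scale. It was 0.01 over all 27768 shared regions and 0.03 over the 8841 shared regions at the edges of stretches longer than 60000 bp without a member. Stretches with a member were the longer ones, with a median of 201499 bp against 126089 bp over all 6438.

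Of these 1485 regions, 11 (0.741%) were higher and 8 (0.539%) lower on G2 by limma with a Benjamini-Hochberg adjusted p below 0.05. Over all shared regions 0.601% were called higher and 0.864% lower. At the edges of stretches longer than 60000 bp without a member, 0.498% were higher and 0.882% lower. The shares beside members were near these, on few calls, but more were higher than lower, the reverse of both other sets. The calls moved with 1 library: 33 were higher and 4 lower without G128 replicate 1, where 1.53% and 0.738% of all shared regions were, against 2.22% and 0.269% here. Without G128 replicate 2, 26 and 22 were called (1.75% and 1.48%, against 1.58% and 1.56% of all). There were 1 and 6 without G2 replicate 1 (0.0792% and 0.346% of all), and 0 and 1 without G2 replicate 2 (0.0576% and 0.169% of all). Without that last library, limma gave 73 higher and 56 lower at an unadjusted p below 0.05. Without centring, where the general difference of 0.34 (log2) stays in, 445 of the 1485 were higher and 0 lower, with 2 lower at an unadjusted p below 0.05. Over all 27768 shared regions 7384 (26.6%) were higher and 61 lower. The p-values measure the spread between these libraries, which may be technical.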

How the data were processed

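ATAC-seq peak lists of 4 libraries were used, 2 per group, grouped by their titles. The series' 4 RNA libraries did not enter. The submitters' processing notes name Bowtie2 2.2.5, SAMtools 1.7, Genrich 0.5 and others and the build mm9, with roles and settings not given in the sources used here, so the treatment of duplicates and of the transposase shift is unknown. Each deposited list, called per library, gives a score, a signal (the peak's value from the caller) and −log10 p-values and q-values. Coordinates are those of the files, counted from 1.

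Summit heights were recovered from the steps of the deposited p-values: the normal quantiles of the lowest 100 distinct values of each list are linear in the logarithm of consecutive whole numbers, which gives the pileup and the log-normal background mean. Peaks sharing at least 1 bp were merged. Distances are bases between edges. Shared regions were compared with limma 3.58.1 (R 4.3.3) on log2 summits over background, centred by library medians, with the spread following the mean height. That trend was added after a fit without it called no shared region in these data and recovered no changed region in simulated data. All limma calls given here with an adjusted p thus rest on a setting chosen after that result was seen. Other values came from Python 3.11.15, numpy 2.4.6, scipy 1.17.1 and pandas 2.3.3, and the scripts were tested on simulated data.

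Regions named were the 10 members with the best worse rank by signal over both G2 lists, the 3 farthest, the 3 on each side of the limit, and the 3 stretches with most members. Members, rules and lists were chosen with earlier results of these data known. Genes, sequences and motifs were not examined, for want of a genome of the files' build in this work. Alternatives concerned overlap, distance, thresholds, peak number and width, chromosomes, scaling, a replicate block and single libraries left out.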

Additional observations from a re-analysis of the deposited data

How the results depend on the processing

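The main counts were 937 far G2-only and 44 far G128-only regions. A distance above 50000 bp gave 578 and 25, and above 100000 bp 243 and 10. The same number of peaks per list, 32540, gave 355 and 107, and the G2 limit scaled to both G128 lists, added after the data were seen, 250 and 155. G128-only counts were 195 with 50% reciprocal overlap, 27 with distance from every G128 peak, 29 with a p 10 times below the weakest, 25 with summits of at least 30 times the background, and 27 with peaks of at least 200 bp. With 1 library left out, there were 935 to 1799 G2-only and 83 to 158 G128-only regions, where fewer lists have to be met. The remaining counts stayed within 1.5 times. G2-only regions outnumbered G128-only ones under every one of these alternatives. Stricter thresholds changed which regions were counted: only 43 and 67 members remained with the stricter p and the summit limit, which gave 713 and 688 far G2-only regions, and 91.6% and 87.1% of these had a listed G128 peak in the full lists.

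Of the shared regions beside members, 11 were higher and 8 lower on G2. Quantile normalization gave 0 and 2, with 98 higher at an unadjusted p below 0.05 by limma, and cyclic loess 3 and 5. Over all 27768 shared regions these settings called 43 and 77, and 85 and 159. Restricting the fit to mean summits of 40 or more gave 2 and 5, from fewer regions, and a distance above 50000 bp 7 higher. Omitting the centring gave 445 and 0. Without the trend of the spread, limma called 0 and 0 beside members, and 0 and 0 over all 27768 shared regions. Beside members, that fit by limma gave 200 in either direction at an unadjusted p below 0.05. With 1 library left out, 0 to 33 were higher and 1 to 22 lower, where the lone library of a group is assumed to vary like the others. With the replicate block, 13 were higher and 13 lower, beside 230 and 382 of all shared regions. The replicate numbers are not shown to pair the libraries: deviations of same-numbered libraries had a correlation of 0.0028. The cause of these shifts was not tested.

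The depth limits the heights: at the limit of a list, a summit rests on 20 to 26 intervals, and no height is known for the members on G128.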
